A study of Mus musculus with 4 samples.

Results

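The HoxC cluster holds 9 of the 24453 gene symbols counted in these libraries, Hoxc4, Hoxc5, Hoxc6, Hoxc8, Hoxc9, Hoxc10, Hoxc11, Hoxc12 and Hoxc13, and all 9 were chosen by symbol, whatever their level. RNA-seq was made from epidermal cells of the back skin of newborn mice at postnatal day 0. The sort kept EpCAM+ Sca1+ cells with high α6-integrin, a gate for basal cells of the interfollicular epidermis. The I53A group had 2 libraries of genotype Ring1a-/- Ring1b-/I53A. These mice lacked Ring1a (gene Ring1) and carried a null allele of Ring1b (gene Rnf2) over the I53A allele, whose product lacks catalytic activity. The CTL group had 2 libraries of mice labelled only as controls. The labels give neither the alleles of the controls, nor whether any mutant allele was limited to a tissue, nor whether several mice were pooled. Nothing in them says how the replicates were separated, so p-values measure the spread between these libraries, which may be technical in the CTL group. In the I53A group the replicates differed in sex-linked genes, as given below.

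HOX proteins are homeodomain transcription factors that give cells a position along the body axis. The genes stand in clusters, and their order on the chromosome follows the order of their expression from the anterior to the posterior of the embryo, with Hoxc4 at the anterior end of HoxC and Hoxc13 at the posterior end. Polycomb repressive complex 1 (PRC1), whose catalytic subunits are Ring1a and Ring1b, places ubiquitin on histone H2A and is known for keeping Hox genes silent outside their domains. In skin, Hox genes differ between body sites in dermal and epidermal cells, and Hoxc13 is required for hair and nail.

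On GRCm38 (the assembly also named mm10) the cluster spans chromosome 15 from 102921103 to 103036852 on the plus strand, with Hoxc13 first and Hoxc4 last (GENCODE M21). The stretches printed here encode homeodomain codons 41 to 58, the end of the homeodomain that reads DNA, and show how far the members differ where they are most alike. Capitals mark the 18 bases that encode the most conserved core of the recognition helix. Each is 5′ to 3′ on the plus strand, read from the GENCODE M21 transcripts and listed in chromosome order for 8 of the 9 members.
Hoxc13: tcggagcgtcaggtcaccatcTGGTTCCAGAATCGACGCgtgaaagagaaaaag
Hoxc12: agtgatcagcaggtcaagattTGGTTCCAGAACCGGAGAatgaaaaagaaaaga
Hoxc11: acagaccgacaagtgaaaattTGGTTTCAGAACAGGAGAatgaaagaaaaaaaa
Hoxc10: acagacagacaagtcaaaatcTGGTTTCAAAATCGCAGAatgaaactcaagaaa
Hoxc9: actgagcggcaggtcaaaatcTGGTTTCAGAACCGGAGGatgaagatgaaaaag
Hoxc8: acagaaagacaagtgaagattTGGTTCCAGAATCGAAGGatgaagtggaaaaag
Hoxc6: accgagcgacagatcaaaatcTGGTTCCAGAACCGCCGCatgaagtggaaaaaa
Hoxc4: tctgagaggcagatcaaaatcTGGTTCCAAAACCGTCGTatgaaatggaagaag
Over whole transcripts, the longest run that a HoxC gene shared with a gene of another Hox cluster was 50 bases, between Hoxc9 and Hoxb9, against reads of 100 nucleotides. Within the cluster, a noncoding Hoxc5 transcript starts inside Hoxc10 and shares a run of 168 bases with it. Both genes lie on the plus strand, so reads of that stretch cannot be assigned to 1 of them.

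Total counts were 15966412 and 21543385 in I53A replicates 1 and 2 and 17010432 and 15505018 in CTL replicates 1 and 2. Levels are given in CPM, counts scaled to library size. Ring1, the deleted gene, was at 2.54 and 2.91 CPM in I53A libraries and at 24.2 and 33.3 CPM in CTL libraries. Rnf2 was at 58.9 and 59.1 CPM in I53A libraries and at 58.5 and 45.8 CPM in CTL libraries, and these counts cannot show the I53A change itself. Xist, which is transcribed from the inactive X chromosome, was at 11.01 CPM in I53A replicate 1 and at 5998 to 8390 CPM in the other 3 libraries. Ddx3y, a Y-linked gene, was at 119 CPM in I53A replicate 1 and under 0.2 CPM in the others. These values mark I53A replicate 1 as male and the other 3 libraries as female, so the I53A libraries came from different mice.

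Along the cluster, the change in I53A epidermis turned from higher at the posterior end to lower at the anterior end. Hoxc13, Hoxc12, Hoxc10, Hoxc9 and Hoxc8 rose, Hoxc4 fell, Hoxc6 and Hoxc5 did not pass the test, and Hoxc11 had 0 counts in every library. Thus 8 of 9 members were tested, with 5 called higher and 1 lower at an adjusted p under 0.05 (edgeR quasi-likelihood test, Benjamini-Hochberg over all tested genes). These 6 calls among 8 tested members stand beside 6.71% of all 14550 tested genes, of which 5.68% were called higher and 1.04% lower. Of the 8 tested members, 3 (Hoxc12, Hoxc10 and Hoxc9) passed the low-count filter through the I53A libraries, a route that favours genes higher in I53A. Of the 5 that the CTL libraries alone would keep, 2 were called higher and 1 lower, beside 5.18% and 1.12% of all such genes. The median log2 fold change was 1.74 over the 8 tested members and 0.14 over those 5, against -0.01 and -0.03 over all genes of each kind. Without CTL replicate 1, 1 member was called higher and 0 lower, and without CTL replicate 2, 3 and 0. In bulk samples, more cells of a type and more RNA per cell cannot be told apart.

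**Figure D1:**
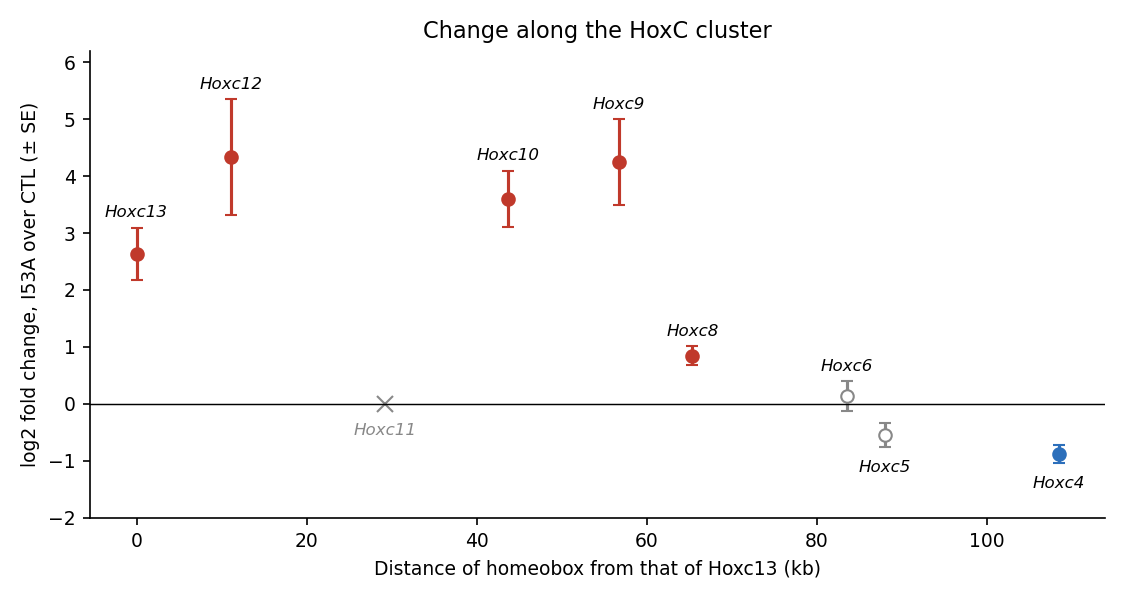
Log2 fold change of each HoxC gene, I53A over CTL, with its SE, against the distance in kb of its homeobox from that of Hoxc13; filled points are called, open points are not, and the cross marks Hoxc11, which had 0 counts. The 5 called members from Hoxc13 to Hoxc8 lie above 0 and Hoxc4 lies below it, with Hoxc6 and Hoxc5 between them in position.

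Hoxc13, at the posterior end, is known for driving hair keratin genes. It had 106 and 254 counts in I53A replicates 1 and 2, against 25 and 22 counts in CTL replicates 1 and 2. Scaled to library size these were 6.74 and 11.2 CPM in I53A libraries and 1.49 and 1.46 CPM in CTL libraries. Both I53A libraries were above both CTL libraries, and the I53A libraries differed more from each other than the CTL libraries did. Hoxc13 was 6.19-fold higher in I53A epidermis (log2 fold change 2.63 ± 0.46 SE, adjusted p = 0.00713). The call was lost without CTL replicate 1 (adjusted p = 0.0989), although the log2 fold change was again 2.63.

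Hoxc12, a posterior gene known to be active in growing hair follicles, had 26 and 78 counts in I53A replicates 1 and 2, against 4 and 0 counts in CTL replicates 1 and 2. That is 1.65 and 3.44 CPM in I53A libraries and 0.238 and 0 CPM in CTL libraries. Both I53A libraries were again above both CTL libraries, and I53A replicate 2 was again the higher one. The difference passed the test (log2 fold change 4.34, SE 1.02, adjusted p = 0.0231), and the ratio of pooled counts was 21.6, with an exact 95% counting interval from 8.18 to 80.7. Its size rests on 4 control counts, all in 1 library. It missed the threshold without I53A replicate 2, CTL replicate 1 or CTL replicate 2 (adjusted p = 0.0562, 0.181 and 0.213; log2 fold change 3.64, 8.56 and 3.44) and with limma-voom (0.0537). The 8.56 is set against a control library at 0 counts and is no bound.

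Hoxc11, a gene of the hindlimb and lumbosacral region, had no count in any of the 4 libraries. A count of 0 allows up to 3 counts, or 0.132 to 0.191 CPM in I53A libraries and 0.179 to 0.199 CPM in CTL libraries. The neighbouring genes Hoxc12 and Hoxc10 were both well above that level in I53A epidermis. Hotair, the long noncoding RNA transcribed from the opposite strand between Hoxc12 and Hoxc11 (chromosome 15, 102944062 to 102947730), had 4 and 7 counts in I53A replicates 1 and 2 and 0 in both CTL libraries. Against a floor of 3 counts over the CTL group, the lower bound of the Hotair fold in I53A libraries was 3.04. That is a bound and not a measured fold, with no counting error allowed for the I53A counts. Hotair was too low to be tested. The other noncoding genes counted in and beside the cluster were also too low, with 1 and 3 counts of Mir615 in I53A replicates 1 and 2 and 0 and 1 in CTL replicates 1 and 2, and with 8 and 10 counts of D930007P13Rik in I53A replicates 1 and 2 and 10 and 2 in CTL replicates 1 and 2.

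Hoxc10, known from hindlimb-level motor neurons and vertebrae, had 179 and 200 counts in I53A replicates 1 and 2, against 9 and 17 counts in CTL replicates 1 and 2. Its levels were 11.4 and 8.81 CPM in I53A libraries and 0.536 and 1.13 CPM in CTL libraries, with no overlap between the groups. This was a 12.1-fold increase (3.60 ± 0.49 on the log2 scale, SE, adjusted p = 0.00165). Hoxc10 was the member of smallest p, and its call held without each library in turn (adjusted p up to 0.0408), with a log2 fold change of 4.21 without CTL replicate 2. Unlike Hoxc13, Hoxc12 and Hoxc9, it was higher in I53A replicate 1 than in I53A replicate 2.

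Hoxc9, a gene of thoracic segments, had 57 and 158 counts in I53A replicates 1 and 2, against 2 and 7 counts in CTL replicates 1 and 2. Its levels were 3.63 and 6.96 CPM in I53A libraries and 0.119 and 0.464 CPM in CTL libraries. The I53A libraries were both above the CTL libraries, an 18.9-fold difference with an adjusted p of 0.00649 (log2 fold change 4.24, SE 0.75). With 9 control counts in all, the exact 95% counting interval of the pooled ratio ran from 10.3 to 44.0. The log2 fold change was 3.64 without I53A replicate 2, 5.43 without CTL replicate 2 and 3.52 without CTL replicate 1, where the call was lost (adjusted p = 0.129).

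Hoxc8, which patterns the thoracic skeleton and the nerves of the forelimb, was well detected in all 4 libraries. It had 1284 and 2261 counts in I53A replicates 1 and 2, against 812 and 793 counts in CTL replicates 1 and 2. These were 81.7 and 99.6 CPM in I53A libraries, above 48.3 and 52.5 CPM in CTL libraries. Hoxc8 was 1.80-fold higher in I53A epidermis (log2 fold change 0.85 ± 0.17 SE, adjusted p = 0.0117), a smaller fold than in the 4 called members posterior to it. The call was lost without CTL replicate 1 (adjusted p = 0.221) and without CTL replicate 2 (0.0580).

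Hoxc8 is also a known target of the microRNA miR-196a, 1 copy of which is encoded inside the cluster between Hoxc10 and Hoxc9. The mature microRNA (RefSeq, GRCm38, chr15:102973365-102973386, plus strand) and the Hoxc8 site in the 3′ UTR with the most complementary bases (chr15:102992976-102992997, plus strand) are given because Hoxc8 rose, with the seed and its match in capitals.
miR-196a-5p: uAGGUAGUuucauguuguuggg
Hoxc8 site: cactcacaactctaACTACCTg
The site pairs with 12 of the 22 bases of the microRNA, and the Hoxc8 3′ UTR holds 2 seed matches (the letters ACTACCT, searched on the mRNA strand). The match was searched in the annotated 3′ UTRs of 10 coding transcripts of the 9 genes, 95 to 1990 bases long, and only that of Hoxc8 held it. The precursor gene Mir196a-2 had 0 and 2 counts in I53A replicates 1 and 2 and 0 in both CTL libraries. These libraries do not measure mature microRNAs, so nothing about miR-196a itself can be read from them.

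Hoxc6, a gene of the upper thoracic region also known from the mammary gland, had 181 and 318 counts in I53A replicates 1 and 2, against 207 and 165 counts in CTL replicates 1 and 2. Its 11.5 and 14.0 CPM in I53A libraries overlapped the 12.3 and 10.9 CPM in CTL libraries, and the log2 difference of 0.14 ± 0.26 (SE) did not pass the test (adjusted p = 0.849). Hoxc5, known with Hoxc4 and Hoxc6 as a gene of the neck and upper trunk, had 282 and 385 counts in I53A replicates 1 and 2, against 385 and 425 counts in CTL replicates 1 and 2. Its 17.9 and 17.0 CPM in I53A libraries were both below the 22.9 and 28.2 CPM in CTL libraries. The difference did not pass the test (log2 fold change -0.55 ± 0.22 SE, adjusted p = 0.195).

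Hoxc4, the anterior end of the cluster and a gene of cervical and upper thoracic vertebrae, had 561 and 806 counts in I53A replicates 1 and 2, against 1051 and 1034 counts in CTL replicates 1 and 2. Its levels were 35.7 and 35.5 CPM in I53A libraries and 62.6 and 68.5 CPM in CTL libraries. The I53A libraries lay within 1 CPM of each other and well below both CTL libraries. Hoxc4 fell by 0.88 on the log2 scale (SE 0.16, adjusted p = 0.00884), to 0.543 times the CTL level. The call was lost without CTL replicate 1 or CTL replicate 2 (adjusted p = 0.103 and 0.0997), with log2 fold changes of -0.95 and -0.81.

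**Figure D2:**
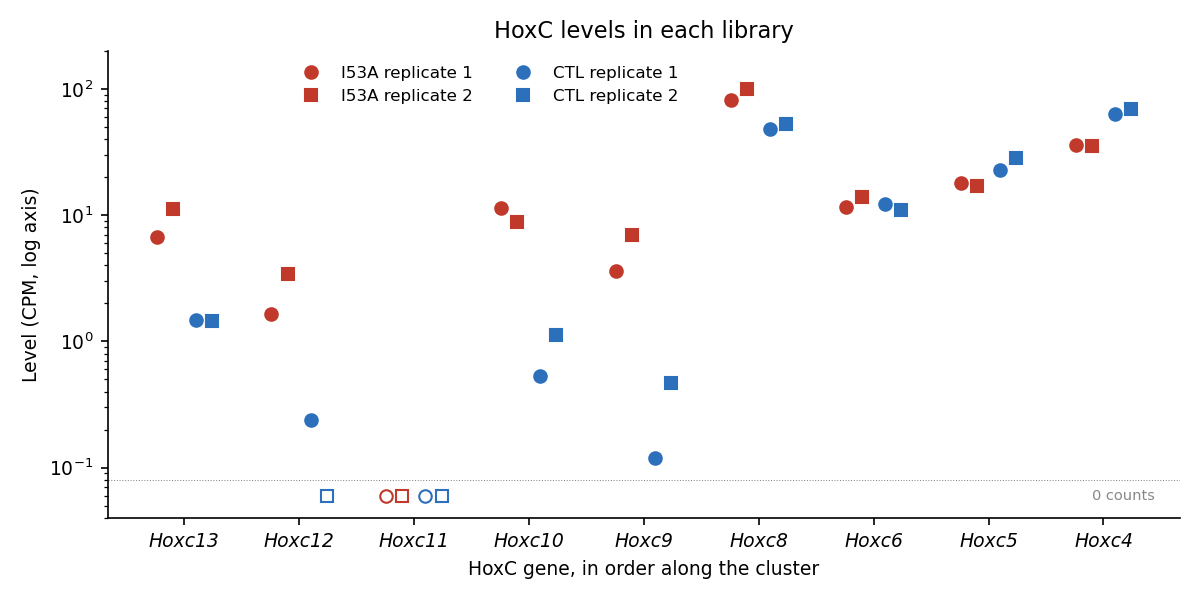
Level of each HoxC gene in CPM (log axis) in the 2 I53A and 2 CTL libraries, with genes in order from Hoxc13 to Hoxc4 and open symbols below the dotted line for 0 counts. Hoxc13, Hoxc12, Hoxc10, Hoxc9 and Hoxc8 have both I53A points above both CTL points, Hoxc6 overlaps, and Hoxc5 and Hoxc4 have both I53A points below.

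Across the 8 tested members, both I53A libraries were above both CTL libraries for 5 and below them for 2, as they were for 24.4% and 23.5% of all tested genes. Ratios between members within a library do not depend on how libraries are scaled. There were 2.29 and 2.81 Hoxc8 counts for each Hoxc4 count in I53A replicates 1 and 2, against 0.773 and 0.767 in CTL replicates 1 and 2. The ratio was about the same in both CTL libraries and higher in both I53A libraries. The ratio of Hoxc13 to Hoxc4 was 0.189 and 0.315 in I53A libraries, against 0.0238 and 0.0213 in CTL libraries. Among nearer members, the ratio of Hoxc8 to Hoxc6 was 7.09 and 7.11 in I53A libraries, against 3.92 and 4.81 in CTL libraries. That of Hoxc5 to Hoxc4 was 0.503 and 0.478 in I53A libraries, against 0.366 and 0.411 in CTL libraries. None of these ratios overlapped between the groups. An exact two-sided permutation test gave p = 0.333 for each, the smallest that 2 against 2 libraries allow.

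The 9 genes together had 170.3 and 196.6 CPM in I53A replicates 1 and 2, against 148.5 and 163.2 CPM in CTL replicates 1 and 2, or 183 ± 18.6 CPM and 156 ± 10.4 CPM (SD, n = 2 each; exact permutation p = 0.333). Hoxc4, Hoxc5 and Hoxc6 made up 38.3% and 33.8% of the HoxC counts in I53A libraries and 65.9% in each CTL library. The posterior members from Hoxc9 to Hoxc13 made up 13.8% and 15.5% in I53A libraries, against 1.60% and 1.87% in CTL libraries. Hoxc8 alone held 48.0% and 50.7% in I53A libraries, against 32.5% and 32.2% in CTL libraries. Left without Hoxc8, the sum was lower in I53A epidermis (0.88 times the CTL mean), where with it the sum was 1.18 times the CTL mean.

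**Figure D3:**
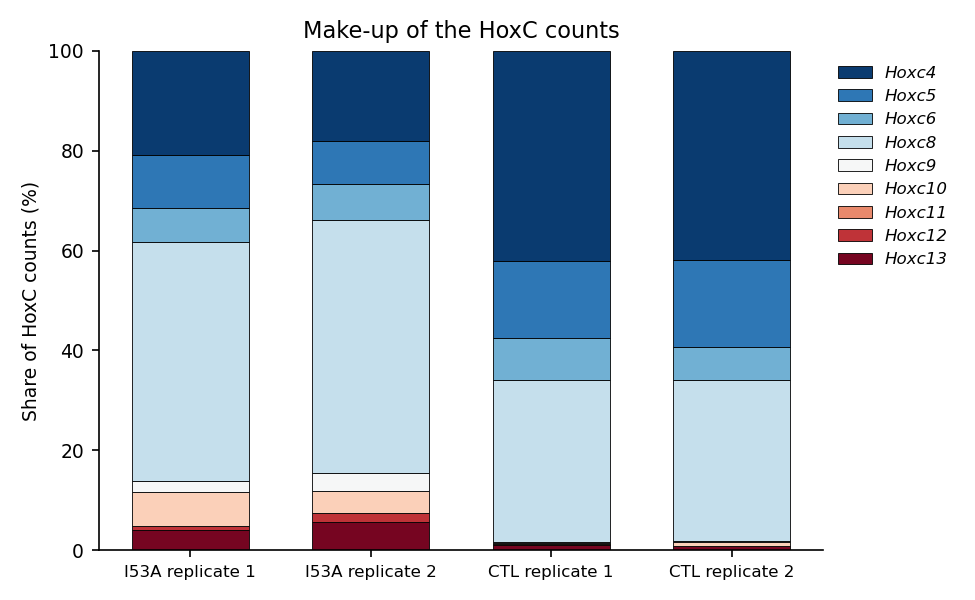
Share in percent of each library's HoxC counts held by each member, stacked from Hoxc13 at the bottom to Hoxc4 at the top, for the 2 I53A and then the 2 CTL libraries. Hoxc9 to Hoxc13 hold 13.8% and 15.5% of the counts in I53A libraries and 1.60% and 1.87% in CTL libraries, and the Hoxc8 band is wider in both I53A libraries than in either CTL library.

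Divided by exon length (CPM per kilobase), the order of levels in I53A epidermis was led by Hoxc8 with 28.8 and 35.2, followed by Hoxc4 with 13.9 and 13.8. Hoxc5, Hoxc6 and Hoxc10 came next, between 4.62 and 5.97, with ranges that overlapped. Hoxc13 lay between 2.74 and 4.55, Hoxc12 between 1.60 and 3.33 and Hoxc9 between 1.49 and 2.87, and each of these overlapped the next. In CTL epidermis Hoxc4 led with 24.4 and 26.7 CPM per kilobase, ahead of Hoxc8 with 17.1 and 18.6, Hoxc5 with 7.42 and 9.12 and Hoxc6 with 5.12 and 4.54, none of which overlapped. The CTL levels of Hoxc13, Hoxc10, Hoxc9 and Hoxc12 were all under 0.61 CPM per kilobase. By this length Hoxc10 overlapped Hoxc5 and Hoxc6 in I53A epidermis, and it was below both in CTL epidermis. With the length of the longest transcript, Hoxc10 lay below Hoxc6 in I53A epidermis too, at 5.97 and 4.62 for Hoxc10 and 7.28 and 8.86 for Hoxc6. With exon stretches shared with other genes left out of the length, Hoxc10 had 6.53 and 5.06 and Hoxc6 had 4.78 and 5.82. These overlapped, and the counts were left unchanged.

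Genes of the same paralog number in the other clusters were read from the same fit. Of the HoxA, HoxB and HoxD genes, 8 of 11, 8 of 10 and 2 of 9 were tested. Among all tested genes, 5.68% were called higher and 1.04% lower. HoxA had 1 called lower (Hoxa2, which patterns the hindbrain and second pharyngeal arch; the call was lost without either CTL library, with an adjusted p of up to 0.172), and HoxD had 1 called higher (Hoxd9). HoxB had no call with edgeR, DESeq2 or limma-voom, and 2 of its genes had an unadjusted p under 0.05. Hoxd9, the paralog of Hoxc9, had 4.20 and 4.41 CPM in I53A libraries and 0.119 and 0.133 CPM in CTL libraries (log2 fold change 5.03 ± 0.73 SE). Its adjusted p was 0.00139, and 0.0794 without CTL replicate 1. It also passed the filter through the I53A libraries alone. Hoxa9 and Hoxb9 did not pass the test, with log2 fold changes of 0.31 ± 0.44 and 0.23 ± 0.32 (SE; adjusted p = 0.794 and 0.787).

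Of the paralogs of Hoxc8, Hoxd8 had 9.03 and 13.4 CPM in I53A libraries and 3.21 and 6.30 CPM in CTL libraries, with no overlap, and missed the threshold (log2 fold change 1.28 ± 0.39 SE, adjusted p = 0.0863). Hoxb8 was close to level between the groups (-0.03 ± 0.23 on the log2 scale, SE, adjusted p = 0.969). Of the paralogs of Hoxc4, Hoxa4 and Hoxb4 were tested and did not pass. Hoxa4 had 5.47 and 5.29 CPM in I53A libraries and 7.02 and 7.82 CPM in CTL libraries (adjusted p = 0.527), and Hoxb4 had 8.65 and 8.64 CPM in I53A libraries and 14.1 and 12.1 CPM in CTL libraries (adjusted p = 0.261). Hoxd4, Hoxa10, Hoxd10, Hoxd12, Hoxa13, Hoxb13 and Hoxd13 were too low to be tested, and of these Hoxd10, Hoxa13, Hoxb13 and Hoxd13 had 0 counts in every library. The HoxC genes held 36.8% and 40.4% of all Hox counts in I53A libraries, against 28.7% and 30.2% in CTL libraries. That share was of a lower total, 463 and 487 CPM in I53A libraries against 517 and 541 CPM in CTL libraries. The HoxA genes together had 139 and 157 CPM in I53A libraries and 202 and 235 CPM in CTL libraries.

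**Figure D4:**
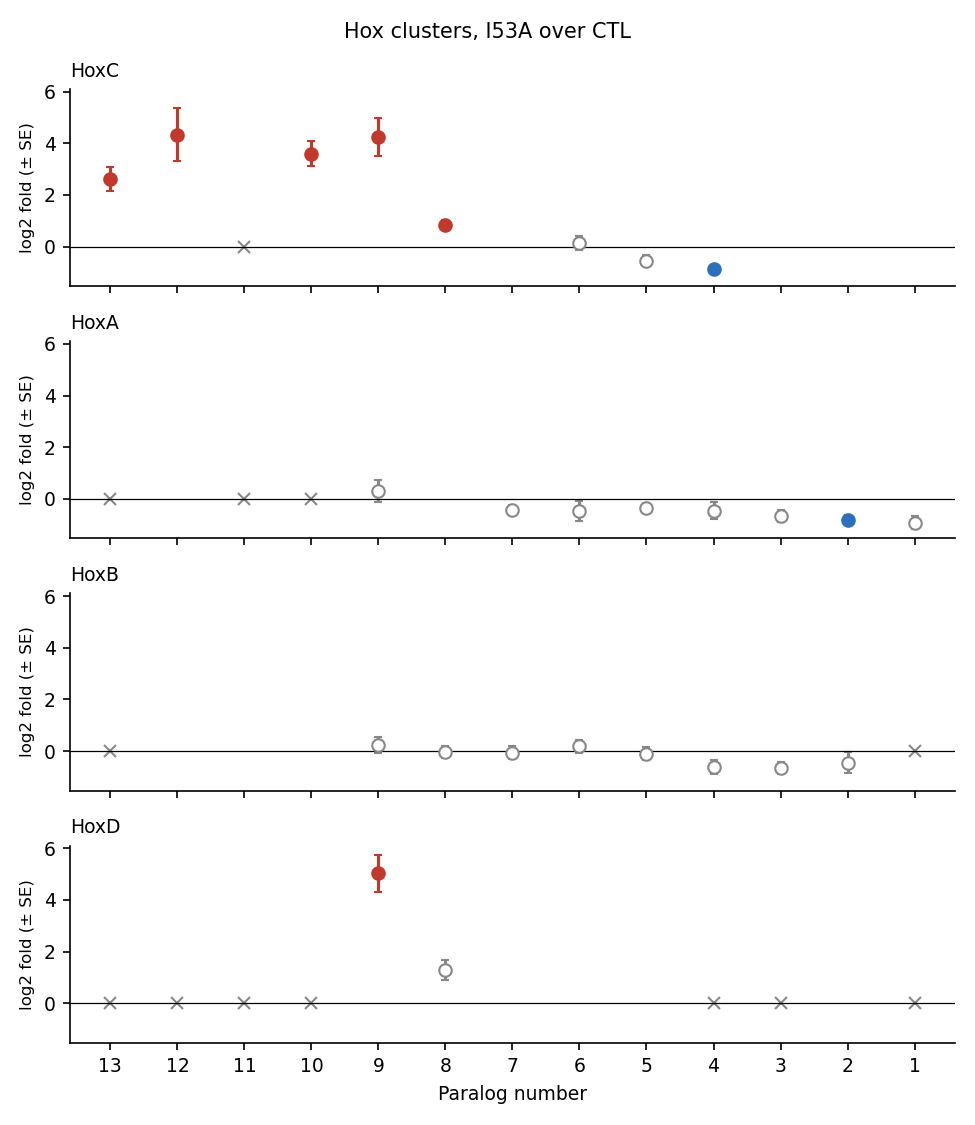
Log2 fold change with SE, I53A over CTL, of the genes of each Hox cluster by paralog number, with filled points for called genes, open points for others tested and crosses at 0 for genes too low to be tested. Besides the 6 called HoxC genes, the called points are Hoxa2, lower, and Hoxd9, higher.

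Over the 4 libraries, the 3 tested genes of the other clusters most like Hoxc10, the member of smallest p, were Hoxd9, Hoxd8 and Hoxa9. Their Euclidean distances from it on centred log2 CPM were 0.979, 2.32 and 3.29, out of 18 genes compared. With 4 libraries in 2 groups, this measure mostly follows the size of the group difference.

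The TALE homeodomain proteins (PBX, MEIS and PKNOX) bind DNA together with HOX proteins. Of 9 TALE genes 8 were tested, of which 4 rose and 4 did not pass the test, beside 5.68% of all tested genes called higher. Of the 7 that the CTL libraries alone would keep, 3 rose, beside 5.18% of all such genes. The median log2 fold change was 0.58 over the 8 and 0.07 over the 7, against -0.01 and -0.03 over all genes of each kind. Meis2, known from limb and neural crest development, had 156 and 173 CPM in I53A libraries and 73.8 and 81.2 CPM in CTL libraries (log2 fold change 1.09 ± 0.15 SE, adjusted p = 0.00151). Meis3 had 23.4 and 22.8 CPM in I53A libraries, against 8.21 and 8.95 CPM in CTL libraries (adjusted p = 0.00517). Meis1, a partner of HOX proteins in limb and blood cells, had 44.3 and 28.1 CPM in I53A libraries, against 18.0 and 11.5 CPM in CTL libraries (adjusted p = 0.0237). Pknox2 had 6.62 and 5.20 CPM in I53A libraries, against 1.61 and 0.133 CPM in CTL libraries (log2 fold change 2.68, adjusted p = 0.0291), and passed the filter through the I53A libraries.

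Without CTL replicate 1 the calls of Meis1, Meis2 and Meis3 were lost (adjusted p = 0.0766, 0.0702 and 0.102), and without CTL replicate 2 those of Meis1 and Pknox2 were (0.132 and 0.166). The log2 fold change of Pknox2 was 5.39 without CTL replicate 1 and 1.86 without CTL replicate 2. Pknox2 also missed the threshold with limma-voom and with the earlier quasi-likelihood fit (adjusted p = 0.0607 and 0.0750).

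Of 20 other regulators of Hox transcription, among them the trithorax methyltransferase Kmt2a, the PRC2 subunits Ezh2, Suz12 and Eed and the demethylases Kdm6a and Kdm6b, 17 were tested. None was called with edgeR or limma-voom, 5 had an unadjusted p under 0.05, and DESeq2 called 1, Kdm6a. Their median log2 fold change was 0.00. The CDX genes Cdx1, Cdx2 and Cdx4, which activate Hox genes in the early embryo, had 0 counts in every library. Kdm6a, an X-linked gene, had 206 and 287 CPM in I53A libraries and 374 and 354 CPM in CTL libraries (edgeR adjusted p = 0.0843).

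Of 22 hair and nail genes linked to Hoxc13, 9 were tested, with 1 called higher, 1 called lower and 7 on neither side. Among all tested genes, 5.68% were called higher and 1.04% lower. Of the 8 listed genes that the CTL libraries alone would keep, 0 were called higher and 1 lower. The median log2 fold change was -0.22 over the 9 and -0.45 over the 8, against -0.01 and -0.03 over all genes of each kind. Krt85, a keratin of the hair shaft and nail, had 55 and 36 counts in I53A replicates 1 and 2 and 1 count in each CTL library. It passed the filter through the I53A libraries, and the ratio of pooled counts was 37.8, with an exact 95% counting interval from 10.2 to 317 (adjusted p = 0.0145). Its call was lost without CTL replicate 1 or CTL replicate 2 (adjusted p = 0.280 and 0.147). Tgm3, a transglutaminase of hair and cornified cells, fell to 15.0 and 15.9 CPM in I53A libraries, against 36.0 and 92.8 CPM in CTL libraries (log2 fold change -2.05 ± 0.37 SE, adjusted p = 0.00796). Without CTL replicate 2, Tgm3 was called with a log2 fold change of -1.22. Foxn1, a regulator of hair shaft differentiation downstream of Hoxc13, had 40.7 and 67.6 CPM in I53A libraries and 48.0 and 47.6 CPM in CTL libraries (adjusted p = 0.751). Krt33b, Krt81, Krt83, Krt84 and Krtap5-1 had 0 counts in every library.

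The EpCAM+ gate is meant to keep epithelial cells and leave out fibroblasts, which lack EpCAM. The Sca1+ gate with high α6-integrin selects basal cells between the follicles. Transcripts of fibroblast markers were still counted in every library. Markers of cells that a sort could still hold were summed in each library. Calls among them stand beside 5.68% of all tested genes called higher and 1.04% called lower. The 12 fibroblast markers together had 2438 and 2334 CPM in I53A libraries and 1583 and 1687 CPM in CTL libraries. Thy1, Fbn1 and Dcn rose (adjusted p = 0.00270, 0.00124 and 0.0446) and the other 9 did not pass the test. Over all 12 the median log2 fold change was 0.54, against -0.01 over all tested genes, and 8 had an unadjusted p under 0.05. The call of Thy1 was lost without CTL replicate 1 (adjusted p = 0.0786) and that of Dcn without either CTL library (0.159 and 0.501). The 10 markers of hair placode, germ and bulge had 1097 and 1116 CPM in I53A libraries and 710 and 689 CPM in CTL libraries, with 3 called higher (Lhx2, Nfatc1 and Tcf7l1). The call of Tcf7l1 was lost without I53A replicate 1, CTL replicate 1 or CTL replicate 2 (adjusted p = 0.0794, 0.390 and 0.286), with limma-voom (0.0651), with offsets for GC content and length (0.333) and with the earlier quasi-likelihood fit (0.0558). The 12 hair matrix and shaft markers, a compartment where Hoxc13 is known to be active, had 60.4 and 84.3 CPM in I53A libraries and 58.4 and 59.3 CPM in CTL libraries. Among them Krt85 rose, Krt81 was at 0 counts in every library and 4 of the 5 tested did not pass the test. The median log2 fold change was 0.19 over the 5 tested and -0.56 over the 4 that the CTL libraries alone would keep. Over all genes of each kind it was -0.01 and -0.03. The 6 Merkel cell markers had 26.98 and 24.02 CPM in I53A libraries and 17.7 and 9.48 CPM in CTL libraries, and 1 of 4 tested was called higher. That was Piezo2, a mechanosensitive channel, whose call was lost without either CTL library (adjusted p = 0.0901 and 0.0579). The simple keratins Krt8 and Krt18 did not pass the test, with log2 fold changes of -2.40 and -0.40. All 4 summed levels were higher in both I53A libraries, as were the posterior HoxC genes, and their part in the HoxC differences was not tested. Of the Merkel sum, Piezo2 alone held 23.7 and 18.4 CPM in I53A libraries and 8.39 and 6.96 CPM in CTL libraries. In the hair matrix and shaft sum, Foxn1 alone held 40.7 and 67.6 CPM in I53A libraries and 48.0 and 47.6 CPM in CTL libraries. Foxn1 overlapped between the groups. The 9 markers of the sorted basal cells, with Krt5 and Krt14 among them, had 23856 and 21094 CPM in I53A libraries and 30404 and 33961 CPM in CTL libraries, with Krt15 called lower (adjusted p = 0.378 without CTL replicate 1). The 8 skeletal muscle markers had 0.700 and 3.17 CPM in I53A libraries and 7.44 and 5.04 CPM in CTL libraries, and those of melanocytes, immune cells and endothelium overlapped between the groups.

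Over all genes, 826 were called higher and 151 lower. Offsets for GC content and length gave 742 and 504, and the same 5 higher and 1 lower calls in HoxC. There were 251 higher and 38 lower genes without CTL replicate 1, 521 and 74 without CTL replicate 2, and 382 and 403 lower genes without I53A replicate 1 and replicate 2. Without I53A replicate 1, which differed from the others in Xist and Ddx3y, the 6 HoxC calls all held.

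**Figure D5:**
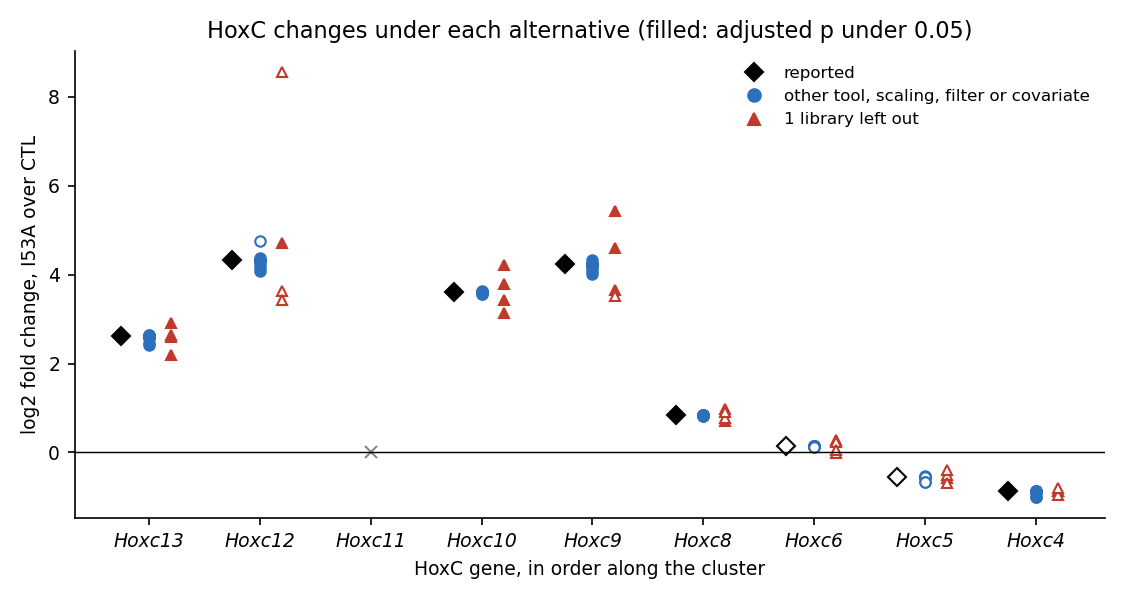
Log2 fold change of each HoxC gene, I53A over CTL, as reported (diamonds), under other tools, scalings, filters and covariates (circles) and with 1 library left out (triangles); filled symbols have an adjusted p under 0.05, and the cross marks Hoxc11 at 0 counts. The called members keep the sign of their change in every alternative drawn, while several triangles are open.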

How the data were processed

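Build mm10 and the tools HTSeq 0.6.1, TopHat2 2.0.13, DESeq2 1.6.3 and Cufflinks 2.2.1 are named in the submitters' processing notes, with no roles. The annotation, the counter and its strand setting: not given in the sources used here. Per the labels' protocols, 10 ng of total RNA was amplified and sequenced as 100-nucleotide single reads. The deposited values are whole-number read counts for each gene symbol, 1 file a library, with no scaling or pooling by the authors. Genes were kept by filterByExpr (minimum count 10, minimum total 15; 14550 genes, with 99.89% to 99.93% of each library's counts) and libraries scaled by TMM (factors 0.985 and 1.05 in I53A, 0.988 and 0.974 in CTL). Groups were compared with the two-sided quasi-likelihood test of edgeR 4.0.16 (R 4.3.3; no block), adjusted by Benjamini-Hochberg over all tested genes and called under 0.05. Log2 fold changes are I53A over CTL, and the SE comes from the coefficient and its F statistic. The fit was tested on simulated data with a fixed dispersion and with changes only in well-counted genes. That test does not cover genes with few counts or the spread seen between these replicates.

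The members and gene lists were chosen with earlier results of these data known. All 9 members are named, with genes of the region that are in the files, paralogs of called members and at most 4 called genes of each list; Hoxa2 and genes named without a call were added to show a count or a level. Gene models and transcript sequences came from GENCODE M21 on GRCm38, and the microRNA from RefSeq. The stretch of 1 member and the values of 1 listed gene are not reported here. Replicates differed by more than sampling noise (chi-square per degree of freedom 41.8 for I53A and 13.1 for CTL). Counting intervals and floors cover counting error alone, since reads without molecular identifiers are not independent molecules. The alternatives were other scalings (upper quartile, RLE), other tools (limma-voom from limma 3.58.1; DESeq2 1.42.0; the earlier quasi-likelihood fit), no filter or at least 1 CPM in 2 libraries, each library left out, loess offsets (span 0.5) for GC content and length, and the replicate number as a block.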

Additional observations from a re-analysis of the deposited data

How the results depend on the processing

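The 6 HoxC calls held under DESeq2, RLE and upper-quartile scaling, both other filters, the earlier fit, the GC content and length offsets with and without a replicate block, and the replicate block alone; limma-voom lost Hoxc12 only. With 1 library left out, 1 to 5 members were called higher and 0 or 1 lower, the fewest without CTL replicate 1 (1 and 0) and CTL replicate 2 (3 and 0). The group left with 1 library is then taken to have the spread of the remaining one. Hoxc6, not called, turned sign (log2 fold change -0.018 without I53A replicate 2, and up to 0.27 without I53A replicate 1). The summed level without Hoxc8 was 0.88 times the CTL mean, against 1.18.

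Over all genes, leaving out 1 library gave 251 to 1202 higher and 38 to 403 lower genes, against 826 and 151. DESeq2 called 232 lower, the replicate block 232, the offsets 504 and the offsets with the block 782; the cause was not tested. Deviations of same-numbered libraries correlated at 0.04 over 14550 genes, so the numbers are not taken to pair them, and the block changed no HoxC call. With gene length taken as the longest transcript, Hoxc6 stood above Hoxc5 and Hoxc10 in I53A libraries. Few control counts limit the precision of the folds of Hoxc12, Hoxc10 and Hoxc9.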
